A study of Homo sapiens with 8 samples.

Results

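The genes described here encode 10 subunits of the SWI/SNF and ISWI chromatin remodelers, chosen by name out of 20037 protein-coding genes: the ISWI ATPases SMARCA1 and SMARCA5, the SWI/SNF ATPases SMARCA2 and SMARCA4, the core subunits SMARCB1 and SMARCC1, the ARID subunits ARID1A and ARID1B of canonical BAF, and ARID2 and PBRM1 of PBAF. For each of them every H3K27ac peak in the gene body or within 20 kb of either end was taken. The cells were MIA PaCa-2, an established human pancreatic carcinoma line, carrying the lentiMPHv2 and lentiSAMv2 components of a CRISPR activation (CRISPRa) system. MP2_HDAC1_OE cells carried a guide that directs the activator to HDAC1, a deacetylase that removes acetyl groups from histones. MP2_NTC cells carried the same system with a non-targeting guide, so both lines express the activator. Each line had 2 H3K27ac ChIP samples and 2 no-antibody controls, and the deposited peaks are 1 pooled list per line. Values therefore have no replicate error, no test between the lines was possible, and every difference below is a description of these 2 lists. The guides act in 1 parental line, and the sources used here do not say whether either derivative is a single clone.

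SWI/SNF complexes use the ATPase SMARCA4 (BRG1) or SMARCA2 (BRM) to slide or evict nucleosomes and open regulatory DNA. Canonical BAF holds ARID1A or ARID1B, and PBAF holds ARID2 and PBRM1 (BAF180, a subunit with several bromodomains that bind acetylated lysine). ISWI complexes use SMARCA5 (SNF2H) or SMARCA1 (SNF2L) and mostly space nucleosomes evenly. Several SWI/SNF subunit genes, ARID1A, PBRM1 and SMARCA4 among them, are recurrently mutated in pancreatic cancer. H3K27ac, acetylation of lysine 27 of histone H3, marks active promoters and enhancers, so a peak at one of these genes reports the mark on the remodeler's own gene and says nothing directly about its protein.

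The MP2_HDAC1_OE list held 25045 peaks with a signal of 11.0 to 185 (median 46.5), and the MP2_NTC list 22569 peaks with a signal of 11.7 to 220 (median 49.3). Because the scaling between the lists is not stated, each peak is given by its percentile, the percentage of peaks in its own list with a lower signal. At HDAC1 itself the strongest peak within 2 kb of the gene start stood at percentile 93.9 in MP2_HDAC1_OE and 45.2 in MP2_NTC. Of 6 epithelial marker genes (KRT7, KRT8, KRT18, KRT19, EPCAM, CDH1), 3 had a peak at the start in MP2_HDAC1_OE and 2 in MP2_NTC. KRT7, EPCAM and CDH1 had none in either list. Of 3 leukocyte markers (PTPRC, CD3E, CD14), 0 had one in MP2_HDAC1_OE and 1, CD14, in MP2_NTC.

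Sequence upstream of 5 of the gene starts is shown: 4 that the peaks of the lines cover to a different extent, and the outer SMARCA2 start, which no peak covers. Each run is the 250 bases before the RefSeq start (GRCh38.p14, the hg38 coordinates of the peak lists), written 5′ to 3′ on the strand of the gene, with bases inside a peak of either line in capitals. The runs lie at chrX:129523491-129523740 on the minus strand (SMARCA1) and, on the plus strand, at chr4:143513452-143513701 (SMARCA5), chr19:10960780-10961029 (SMARCA4), chr22:23786716-23786965 (SMARCB1) and chr9:2015097-2015346 (the outermost of 4 SMARCA2 starts). All but the first bases of the SMARCA5 run also lie in the lncRNA gene SMARCA5-AS1.
SMARCA1: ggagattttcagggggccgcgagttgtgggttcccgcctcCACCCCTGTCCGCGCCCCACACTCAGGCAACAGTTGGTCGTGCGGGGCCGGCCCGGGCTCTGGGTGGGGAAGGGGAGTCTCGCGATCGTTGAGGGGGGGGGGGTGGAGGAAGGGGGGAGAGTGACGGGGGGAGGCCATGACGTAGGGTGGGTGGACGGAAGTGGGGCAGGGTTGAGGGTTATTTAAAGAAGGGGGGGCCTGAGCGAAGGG
SMARCA5: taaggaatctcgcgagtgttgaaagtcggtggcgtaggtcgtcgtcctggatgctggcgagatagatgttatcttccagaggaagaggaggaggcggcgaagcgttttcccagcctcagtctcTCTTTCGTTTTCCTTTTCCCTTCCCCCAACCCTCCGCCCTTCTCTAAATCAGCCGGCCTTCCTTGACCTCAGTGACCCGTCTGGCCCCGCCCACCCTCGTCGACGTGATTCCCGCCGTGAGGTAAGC
SMARCA4: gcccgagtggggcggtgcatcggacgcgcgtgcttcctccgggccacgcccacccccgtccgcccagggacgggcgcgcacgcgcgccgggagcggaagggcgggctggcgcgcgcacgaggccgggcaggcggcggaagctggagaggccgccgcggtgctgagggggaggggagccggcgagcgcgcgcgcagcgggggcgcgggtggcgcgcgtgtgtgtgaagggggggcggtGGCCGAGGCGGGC
SMARCB1: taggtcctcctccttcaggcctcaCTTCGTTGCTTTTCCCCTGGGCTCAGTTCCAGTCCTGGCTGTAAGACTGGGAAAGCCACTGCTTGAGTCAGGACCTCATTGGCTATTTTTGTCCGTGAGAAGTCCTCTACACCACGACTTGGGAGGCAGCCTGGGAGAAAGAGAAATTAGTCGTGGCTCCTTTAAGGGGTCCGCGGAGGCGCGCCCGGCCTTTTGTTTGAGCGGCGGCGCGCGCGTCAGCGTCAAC
SMARCA2: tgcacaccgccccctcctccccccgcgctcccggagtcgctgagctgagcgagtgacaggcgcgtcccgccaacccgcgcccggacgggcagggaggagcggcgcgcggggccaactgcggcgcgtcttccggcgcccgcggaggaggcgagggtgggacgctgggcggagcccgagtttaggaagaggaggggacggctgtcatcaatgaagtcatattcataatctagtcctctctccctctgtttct
In the SMARCA1 run 210 of 250 bases were covered by the MP2_HDAC1_OE peak and 0 by an MP2_NTC peak. The order was the other way for SMARCA5, with 31 bases covered in MP2_HDAC1_OE and 127 in MP2_NTC, and for SMARCB1, with 64 and 226. For SMARCA4 only 13 bases were covered, all by an MP2_NTC peak. The SMARCA2 run has no capitals, as neither list has a peak there. At both PBRM1 starts all 250 bases were covered in MP2_NTC and 0 in MP2_HDAC1_OE, but the run before the outer start is not printed, as it lies largely in GNL3.

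Both lines had a peak at 8 of the 10 genes, and they were the same 8. Over all protein-coding genes the share with a peak in the same kind of window was 58.7% in MP2_HDAC1_OE and 57.7% in MP2_NTC. The remodeler genes are long (median 120896 bp against 24115 bp), and longer windows can hold more peaks. SMARCA2 and ARID1B had no peak in either list. The 8 genes held 52 peaks, 27 from MP2_HDAC1_OE and 25 from MP2_NTC, with median percentiles of 53.3 and 54.5. By their strongest peak the genes had a median percentile of 76.9 in MP2_HDAC1_OE and 72.5 in MP2_NTC, against 81.3 and 79.4 over all genes with a peak. The medians of the group thus lay below those of all genes in both lists. For ARID1A, ARID2 and PBRM1 the strongest peak lay at a neighbouring gene. In the gene alone the medians were 76.0 in MP2_HDAC1_OE (6 genes) and 54.5 in MP2_NTC (7 genes).

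The 52 peaks merged into 28 regions, where peaks that share at least 1 base form 1 region. Of these, 9 were shared by the lines and 9 were unique to MP2_HDAC1_OE (each 32.1%, 95% Wilson interval 17.9 to 50.7). The other 10 were unique to MP2_NTC (35.7%, 20.7 to 54.2). Over all 18678 merged regions of the lists 28.6% were unique to MP2_HDAC1_OE and 20.7% to MP2_NTC. The rest, a higher share than among the members, were shared. The MP2_HDAC1_OE share lies inside the interval of the members and the MP2_NTC share just below the lower bound of theirs. These intervals cover counting error only and treat the 28 regions as independent, although several lie in the window of the same gene. The shares over all merged regions count a region whether or not it lies in a gene window. A region unique to a line is one where the other list has no peak, and the mark may still be present there below the list's threshold. At the gene's own start 7 of 13 regions were shared (53.8%), 2 were unique to MP2_HDAC1_OE and 4 to MP2_NTC. Of the 15 regions away from the gene's own start 2 were shared (13.3%), 7 were unique to MP2_HDAC1_OE and 6 to MP2_NTC. Counted in the same way over all protein-coding genes, 62.1% of regions at the gene's own start and 48.9% of those away from it were shared, so starts had the higher share in general. For 8 of these 15 another gene's start or end was within 2 kb.

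**Figure D1:**
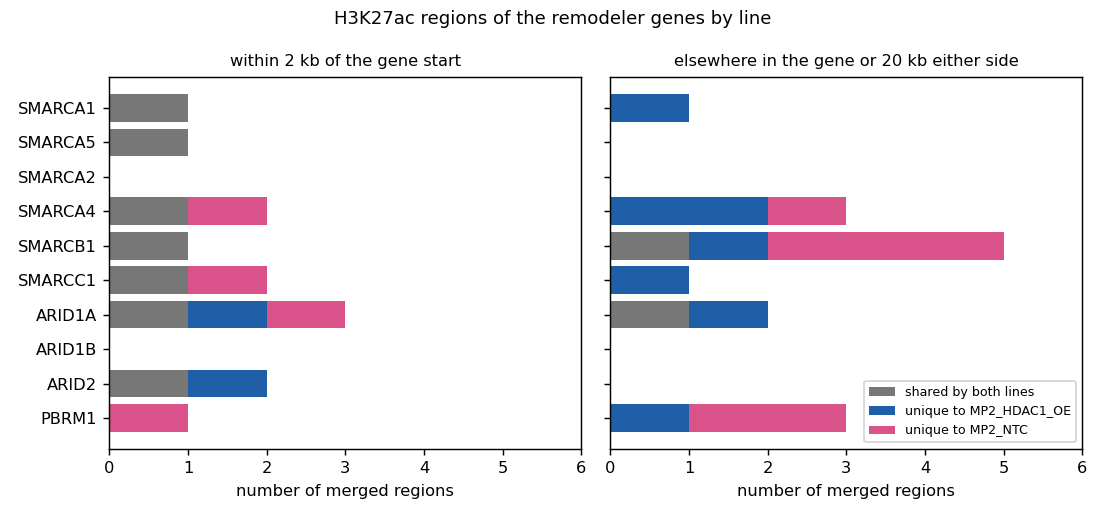
Number of merged H3K27ac regions (x axis) of each of the 10 genes (y axis), on the left within 2 kb of the gene start and on the right elsewhere in the gene or within 20 kb of it. Grey is shared, blue unique to MP2_HDAC1_OE and pink unique to MP2_NTC: 7 of 13 regions at starts are shared against 2 of 15 elsewhere (62.1% and 48.9% over all protein-coding genes), and SMARCA2 and ARID1B have none.

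At the gene start, taken as the strongest peak of each line within 2 kb, 7 genes had peaks of both lines and PBRM1 of MP2_NTC only. Of all protein-coding genes 49.0% had a start peak of either line, 6.33% of MP2_HDAC1_OE only and 5.25% of MP2_NTC only. Of the 7 genes 6 had the higher percentile in MP2_HDAC1_OE, with a median difference (MP2_HDAC1_OE minus MP2_NTC) of 7.25 percentage points. Among 7500 protein-coding genes with start peaks of both lines 54.4% were higher in MP2_HDAC1_OE, with a median difference of 1.07 and quartiles of -9.25 and 13.1. The median start percentile of these genes was 79.7 in MP2_HDAC1_OE and 77.5 in MP2_NTC. Over the members with a start peak in the list it was 76.3 in MP2_HDAC1_OE and 59.7 in MP2_NTC (PBRM1 included), below that of the genes at large in both. The count depended on how the start was measured: with the signals of all peaks within 2 kb summed and ranked among genes, 3 of 7 were higher in MP2_HDAC1_OE and the median difference was -1.20. SMARCA1 and SMARCA5 were higher in MP2_HDAC1_OE in each of 4 ways of taking the difference. Both had 1 start peak per line, so all 4 ways rank the same peaks and are not separate checks. ARID2 was lower in each, but its MP2_NTC start peak lay at the neighbouring lncRNA gene LINC00938. On the end of ARID2 itself only MP2_HDAC1_OE had peaks. SMARCA4, SMARCB1, SMARCC1 and ARID1A changed sign in at least 1 of the 4 ways.

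**Figure D2:**
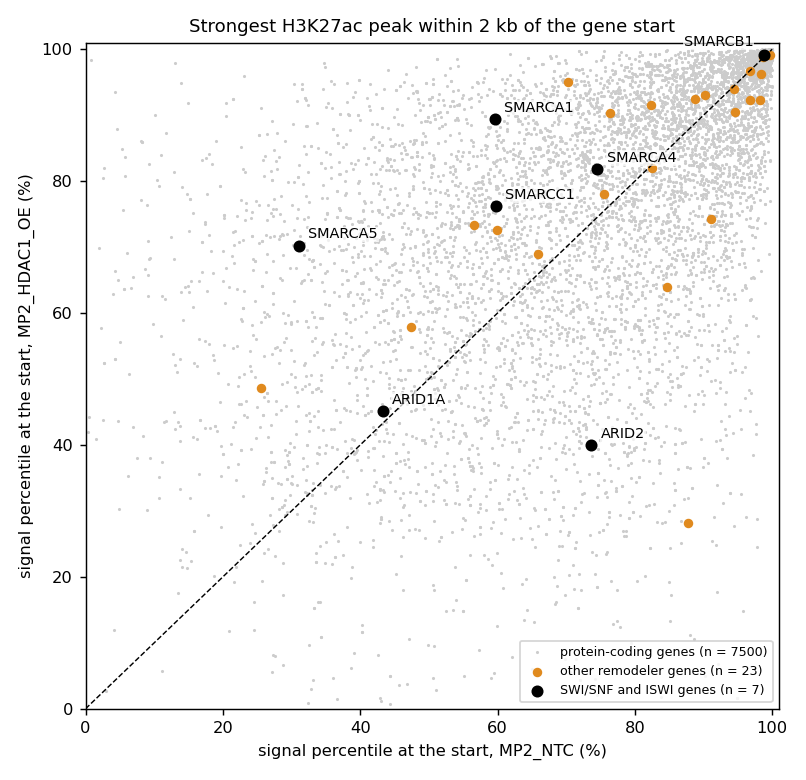
Percentile of the strongest H3K27ac peak within 2 kb of the gene start in MP2_NTC (x axis, %) and MP2_HDAC1_OE (y axis, %) for 7500 protein-coding genes (grey), 23 other remodeler genes (orange) and 7 of the described genes (black), with the dashed line marking equal percentiles. SMARCA1 and SMARCA5 lie far above the line and SMARCB1 is at the top of both lists. ARID2 lies far below the line, with its MP2_NTC value taken from a peak at the neighbouring gene LINC00938.

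**Figure D3:**
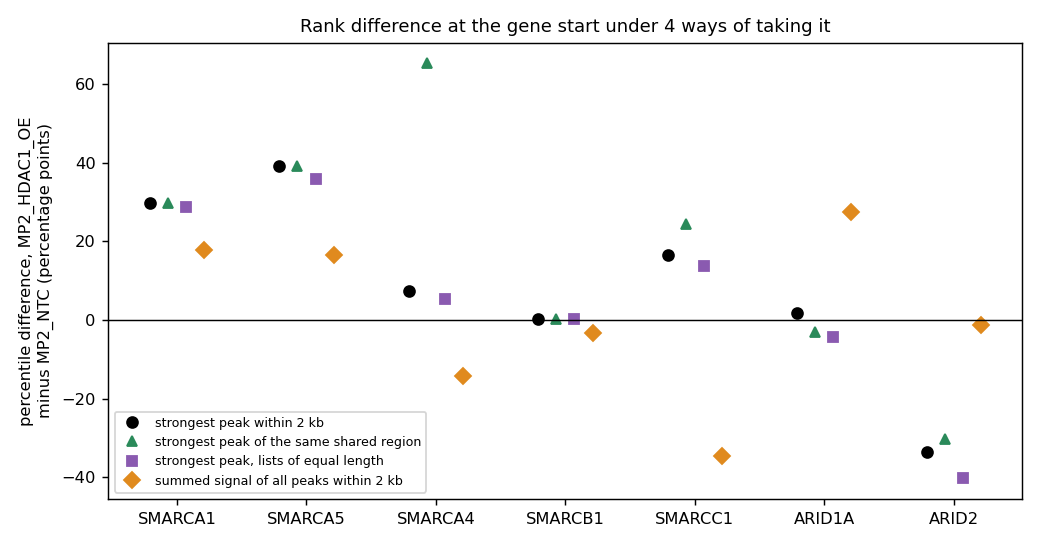
Difference in percentile at the gene start (y axis, MP2_HDAC1_OE minus MP2_NTC, percentage points) for the 7 genes with start peaks of both lines, taken in 4 ways: strongest peak within 2 kb (circles), strongest peak of the same shared region (triangles), lists cut to equal length (squares) and summed signal (diamonds). Summed signal is ranked among gene starts and the others among peaks, so the sizes are not on 1 scale. For SMARCA1 and SMARCA5, with 1 start peak per line that all 4 ways rank, all 4 symbols lie above 0. For ARID2, whose MP2_NTC start peak lies at the neighbouring gene LINC00938, all 4 lie below it. For SMARCA4, SMARCB1, SMARCC1 and ARID1A they fall on both sides.

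The ISWI ATPase genes had larger rank differences than most genes. At SMARCA1 (chrX:129446506-129523490, minus strand), which encodes SNF2L, the MP2_HDAC1_OE peak had a signal of 81.4 at percentile 89.5 (rank 2640, score 1000) and its summit 199 bp into the gene. The MP2_NTC peak had a signal of 55.1 at percentile 59.6 (score 773), and all 218 bp of it lay inside the 820 bp MP2_HDAC1_OE peak. The difference of 29.9 points was above that of 90.9% of all genes compared. A second region, of 2 peaks unique to MP2_HDAC1_OE (signals 50.8 and 44.1, percentiles 58.1 and 45.5), lay at the start of OCRL, a phosphoinositide phosphatase gene next to SMARCA1, so it cannot be assigned to SMARCA1. SMARCA5 (chr4:143513702-143557486, plus strand), which encodes SNF2H, had 1 peak in each list. Its MP2_HDAC1_OE peak was 277 bp wide with a signal of 58.8 at percentile 70.2 (score 933). The MP2_NTC peak was wider, 820 bp, and lower, with a signal of 39.3 at percentile 31.2 (score 689). The difference of 39.1 points exceeded that of 95.1% of genes. Ranked as summed signal among gene starts, the same peaks gave 17.9 points for SMARCA1 and 16.5 for SMARCA5. These are on another scale, as the other percentiles rank among all peaks. At both genes the narrower peak lay wholly inside the wider one, but the wider peak was in MP2_HDAC1_OE at SMARCA1 and in MP2_NTC at SMARCA5.

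**Figure D4:**
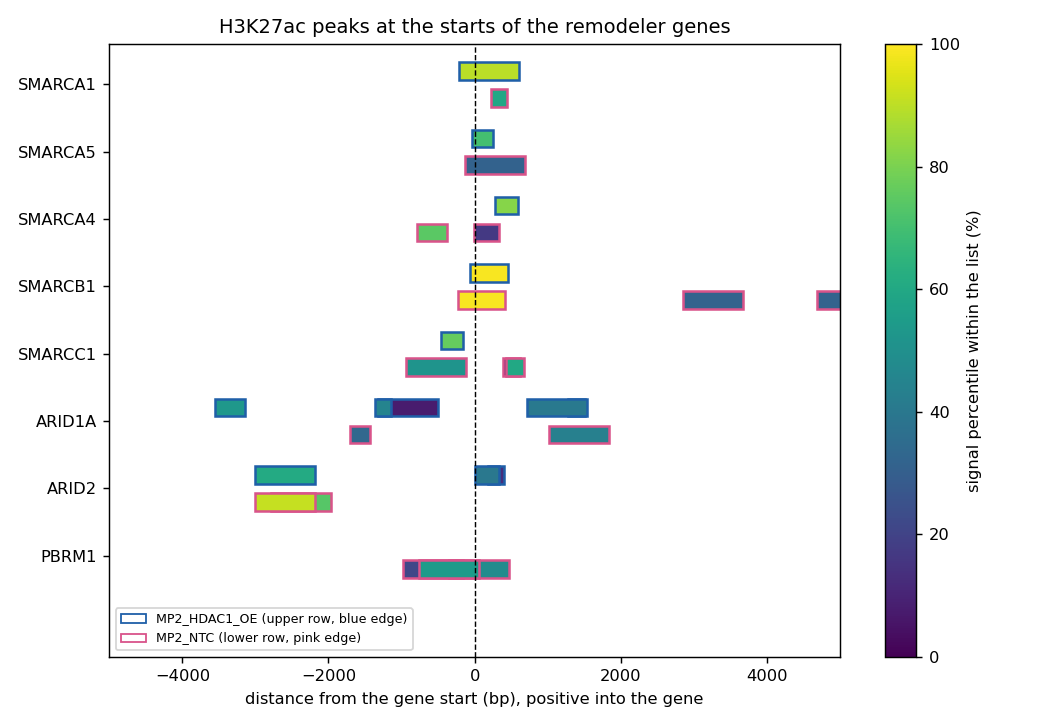
H3K27ac peaks within 5 kb of the start of the 8 genes with peaks (x axis, distance in bp, positive into the gene), each bar spanning 1 peak and coloured by its signal percentile within its list. The upper row of each gene (blue edge) is MP2_HDAC1_OE and the lower (pink edge) MP2_NTC: at SMARCA1, SMARCA5 and SMARCB1 the lines' peaks overlap, at SMARCA4 they meet at an edge, and PBRM1 has MP2_NTC peaks alone. For SMARCC1 and ARID2, whose strand was not given in the reference used, 0 is the end of the gene nearest to its peaks.

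The SWI/SNF ATPase genes differed from each other. SMARCA4 (chr19:10961030-11062273, plus strand), which encodes BRG1, had start peaks of close rank in both lines, but at different positions. In MP2_HDAC1_OE the only start peak had its summit 486 bp inside the gene, with a signal of 70.0 at percentile 81.8 (score 1000). In MP2_NTC the stronger peak (signal 67.2, percentile 74.6, score 1000) had its summit upstream, at -525 bp from the start, and was unique to that line. A weaker MP2_NTC peak (signal 27.8, percentile 16.5, score 549) overlapped the MP2_HDAC1_OE peak by only 51 bp. Taken within that shared region the difference was 65.3 points, against 7.25 for the strongest peaks, and for the summed signal it was -14.2. Farther inside SMARCA4 there were 2 peaks unique to MP2_HDAC1_OE (percentiles 28.5 and 23.3) and 1 unique to MP2_NTC (27.3), all in the lower part of their lists. SMARCA2 (chr9:2015347-2193620, plus strand), which encodes BRM, had no peak at any of its 4 RefSeq starts or within 20 kb of the gene. The nearest peak lay 1332 kb beyond the gene in MP2_HDAC1_OE and 2469 kb beyond it in MP2_NTC, and neither list had a peak between the gene and the short-arm end of chromosome 9. The stretch free of peaks of both lines was 3526 kb long and held 19 protein-coding genes, SMARCA2 among them.

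Of the core subunit genes SMARCB1 had a start near the top of both lists and SMARCC1 a start below the median of gene starts in both. SMARCB1 (chr22:23786966-23838009, plus strand), which encodes the BAF47 (SNF5) subunit, had the same strong start peak in both lines. Its signal was 123.1 in MP2_HDAC1_OE (percentile 99.1, rank 232) and 134.9 in MP2_NTC (percentile 98.8, rank 263). The summits were 184 and 186 bp inside the gene, and the peaks overlapped by 483 bp. SMARCB1 had 3 further regions unique to MP2_NTC: 1 upstream of the start (summit at -5417 bp, signal 54.2, percentile 58.2) and 2 inside the gene (percentiles 31.5 and 31.4). The other regions of its window lay at neighbours. A shared region at the start of CHCHD10 reached percentile 88.6 in MP2_HDAC1_OE and 89.1 in MP2_NTC, and a region unique to MP2_HDAC1_OE lay at SLC2A11 (signal 76.7, percentile 86.7). SMARCC1 (chr3:47585269-47781893), which encodes BAF155, the scaffold of the complex, had a shared region just outside its higher end. There the MP2_HDAC1_OE peak had a signal of 63.9 at percentile 76.3 and the MP2_NTC peak 50.4 at percentile 51.8. Inside the gene MP2_NTC alone had 2 overlapping peaks (signals 55.2 and 19.7, percentiles 59.8 and 8.0). The strongest peak gave a difference of 16.5 points and the summed signal -34.6, since MP2_NTC had 3 peaks there (summed signal 125) and MP2_HDAC1_OE had 1 (63.9). Another region of 2 peaks (percentiles 58.0 and 53.0), unique to MP2_HDAC1_OE, lay 6505 bp outside the gene.

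The ARID subunit genes of canonical BAF were ARID1A and ARID1B. ARID1A (chr1:26696015-26782104, plus strand) had start peaks at percentile 45.1 in MP2_HDAC1_OE and 43.3 in MP2_NTC. Both were below the medians over gene starts (79.7 and 77.5). By summed signal the difference was 27.4 points, with 4 peaks in MP2_HDAC1_OE (summed signal 132) and 2 in MP2_NTC (86.2), against 1.78 by the strongest peak. The MP2_HDAC1_OE peaks overlap each other in pairs, so their sum counts some bases more than once. No peak covered the 250 bases before its start. In the shared region downstream of the start the MP2_HDAC1_OE peaks had signals of 41.7 and 27.5 and the MP2_NTC peak 45.8, so the order there was the reverse of that for the strongest peaks. Upstream there were 2 regions unique to MP2_HDAC1_OE, with top percentiles of 53.3 and 45.1, and 1 unique to MP2_NTC, at percentile 33.3. These also lie near the starts of the genes LOC101928728 and LOC124900417. The strongest peaks of the ARID1A window were at the start of its neighbour PIGV, a gene of GPI-anchor synthesis, with percentiles of 77.6 in MP2_HDAC1_OE and 86.6 in MP2_NTC. ARID1B (chr6:156776026-157210779, plus strand), the paralog of ARID1A, had no peak at either of its 2 RefSeq starts. Its nearest peak lay 63.3 kb past the gene in MP2_HDAC1_OE and 64.3 kb past it in MP2_NTC. The stretch around it without a peak of either line was 1958 kb long and held 2 protein-coding genes, ARID1B among them.

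Both PBAF genes had a start region found in one list alone, as did SMARCA4, SMARCC1 and ARID1A. PBRM1 (chr3:52545367-52685913, minus strand) had 3 overlapping MP2_NTC peaks at its start, with signals of 48.1, 52.0 and 32.7 and percentiles of 47.8, 54.5 and 21.4. MP2_HDAC1_OE had no peak there, and its nearest was 84891 bp from the start. GNL3, a nucleolar GTPase gene on the opposite strand, starts 7 bp away, so the region belongs to both starts. Away from the start PBRM1 had 3 more regions, each of 1 line and each at another gene. The MP2_HDAC1_OE peak (percentile 62.2) and one MP2_NTC peak (56.3) lay near NT5DC2 and UQCC5. The other MP2_NTC peak (signal 63.5, percentile 70.5, score 1000) lay at GLT8D1 and also reached an end of SPCS1. At ARID2 (chr12:45729706-45908037), which encodes BAF200, MP2_HDAC1_OE alone had 2 overlapping peaks on the lower end of the gene, of low rank (signals 41.6 and 22.6, percentiles 40.0 and 12.9, scores 540 and 541, where 540 is the lowest in the list). A shared region about 2 kb outside that end lay at the start of the lncRNA gene LINC00938. There the MP2_HDAC1_OE peak had a signal of 52.3 at percentile 60.7, and the MP2_NTC peaks had signals of 92.3 and 66.4 at percentiles 91.0 and 73.7. The ARID2 difference of -33.7 points was below that of all but 5.31% of genes, but it sets a peak on the gene end against a peak at LINC00938. Within the shared region the difference was -30.3, and for the summed signal -1.20.

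The promoter table held 8 of the 10 genes, with 14 starts (SMARCC1 and ARID2 were not in it). Over the 300 bases from 250 before to 50 after each start, the hexamer GGGCGG of SP1-type GC boxes (both strands) occurred at 8 of the 14 promoters. This was close to the share over all 22183 promoters, 56.3%. By gene it occurred in 7 of the 8, a count with no share over all genes beside it. SMARCA1 was the gene without the hexamer. SMARCA1 also had a low CpG ratio (observed over expected) of 0.59, against 0.96 for SMARCA5, 1.17 for the outer SMARCA4 start and a median of 0.74 over all promoters. The 2 genes without a peak had starts of both kinds. The outer SMARCA2 start had a ratio of 0.90 with 2 GC boxes, and its 3 inner starts had ratios of 0.25, 0.23 and 0.65 with 0. One ARID1B start was 72.0% G or C with 4 GC boxes, and the other was 37.7% G or C with 0. CCAAT (NFY) occurred at 3 of the 14 promoters against 34.7% of all. The hexamer TATAAA, which binds TBP, occurred at 1, an inner SMARCA2 start, against 9.47%. CCGGAAG (ETS) occurred at 1, the outer SMARCA2 start, against 12.8%. The NRF1 palindrome and AAGATGGC (YY1) occurred at 0, against 1.5% and 3.53%. A match says only that the letters are present in the window.

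Beside the 10 genes, 38 other remodeler genes were examined in the same way: further SWI/SNF subunits, ISWI partners, and CHD and INO80 family ATPases. Of them 23 had start peaks of both lines, 9 of MP2_HDAC1_OE only, 1 of MP2_NTC only and 5 of neither. Over all protein-coding genes 6.33% had start peaks of MP2_HDAC1_OE only and 5.25% of MP2_NTC only. Of the 23 genes 13 were higher in MP2_HDAC1_OE and 10 lower, with a median difference of 0.23 points. This was close to all 7500 genes compared, of which 54.4% were higher, with a median difference of 1.07. The upper end was CHD3 (percentile 95 in MP2_HDAC1_OE and 70.2 in MP2_NTC), EP400 (48.6 and 25.5) and CHD6 (73.4 and 56.6), each an ATPase gene. The lower end was BRD9 (28.2 and 87.7), the bromodomain subunit of non-canonical BAF, then DPF2 (63.9 and 84.7) and SMARCD2 (74.3 and 91.0), both SWI/SNF subunits. The genes with a start peak in MP2_HDAC1_OE alone were SMARCC2 (percentile 88.1), the paralog of SMARCC1, BRD7 (77.5) and PHF10 (35.5) of PBAF, SMARCD3 (36.2), the ISWI partners BAZ1A (71.6) and BAZ2A (60.3), and the CHD genes CHD4 (54.6), CHD7 (44.2) and CHD5 (8.4). BAZ1B, another ISWI partner, had one in MP2_NTC alone (86.8). For CHD6, SMARCC2, BAZ1A, CHD7 and CHD5 no start was listed and both gene ends were searched, so their peak may lie at the far end. In PBAF the lines differed in direction between genes: PBRM1 had its start region in MP2_NTC alone, and BRD7 and PHF10 in MP2_HDAC1_OE alone.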

How the data were processed

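H3K27ac ChIP-seq of MP2_HDAC1_OE and MP2_NTC cells (2 ChIP and 2 no-antibody control samples each, antibody Abcam ab4729) was processed by the authors with the ENCODE pipeline on hg38. The submitters' processing notes name BWA 0.7.12 and Picard 1.88. The peak caller is not given in the sources used here. Peaks that passed the irreproducible discovery rate (IDR) test were deposited as 1 pooled list per line, so replicates cannot be compared. In the deposited lists column 7 is the signal of each peak, whose scaling between lists is not stated, and column 5 a score up to 1000. Depth is unknown and the signal tracks were not analysed here. From the lists, percentiles of signal were taken within each list, peaks sharing at least 1 base were merged into regions, and genes were placed by RefSeq (GRCh38.p14) with 20 kb either side. Repeated intervals were kept as deposited. A region was at a start when it came within 2 kb of any listed start. For genes without a listed start, either gene end was used instead. Starts were listed for 15842 of the 20037 protein-coding genes, for 31 of the 38 other remodeler genes, and for all members but SMARCC1 and ARID2. Introns and exons were not told apart. Merging and window counts were tested on simulated peaks. All 10 genes are named. Of 38 other remodeler genes the 3 highest and 3 lowest differences and those with start peaks of 1 line are named. The members and lists were chosen with earlier results of these data known. A further marker gene is not reported here. Calculations used Python 3.11.15, numpy 2.4.6, pandas 2.3.3 and matplotlib 3.10.9. Alternatives varied the windows, the merging, the peaks kept and the ranking.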

Additional observations from a re-analysis of the deposited data

How the results depend on the processing

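No paired analysis was possible because the ChIP samples were pooled before peaks were deposited, which also kept any 1 sample from being left out. Of 53 alternative values of the counts and medians over the genes, 28 stayed the same. This meant within 1.5 times for a count, inside its binomial interval for a median percentile and within 1 point for the median difference. That interval treats the percentile as a share of all peaks of its list, so it is narrow and measures no spread among the genes. Every alternative median percentile fell outside it. With 50 kb either side there were 38 MP2_NTC peaks and 14 shared regions. In the gene alone there were 10 peaks of MP2_HDAC1_OE and 12 of MP2_NTC, with 3, 5 and 5 regions unique to MP2_HDAC1_OE, unique to MP2_NTC and shared. Single peaks sharing at least 50% of both gave 20 unique to MP2_HDAC1_OE and 18 unique to MP2_NTC. The median percentile of the strongest peak, in MP2_HDAC1_OE and MP2_NTC, was 77.6 and 67.2 with 10 kb and 79.7 and 81.6 with 50 kb. It was 76.0 and 54.5 in the gene alone, and 67.8 and 62.5 among non-overlapping intervals. The top 75% of peaks gave 69.2 and 63.4, but this setting kept the same strongest peaks and only rescaled their percentiles. The order of the lines was thus reversed at 50 kb. The median difference at the start was 16.5 within 1 kb (5 genes) and 10.0 within 5 kb. By settings chosen after seeing the data it was 11.9 without ARID2, 24.4 within the same shared region and 5.26 with lists of equal length. With summed signal it reversed to -1.20, and SMARCA4 (-14.2), SMARCB1 (-3.30) and SMARCC1 (-34.6) turned with it. ARID1A turned to -2.98 within the shared region and to -4.24 with lists of equal length. The cause was not tested. Depth is unknown, so how far it limits the absence of a peak cannot be given.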
